A study of Homo sapiens with 3 samples.

Results

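C643 cells, derived from an anaplastic thyroid carcinoma, were set against ES-2 cells from an ovarian carcinoma and Huh-7 cells from a hepatocellular carcinoma, to describe which mature miRNAs stood apart in the thyroid line. Reads were summed over the genomic copies (loci) of each mature miRNA and divided by the total of the library, which gave the share of miRNA reads. A miRNA was taken when its share in C643 was at least 4 times, or at most 0.25 times, the share in both other lines and when it reached at least 100 deposited units in 1 library. Of 2588 mature miRNAs listed, 212 reached 100 units, and 22 of these met the rule: 10 were higher and 12 were lower in C643. The shares and their ratios chose the miRNAs, so both are given as a description, without a test.

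All 3 lines were parental cells, with no gene deletion or treatment. They were grown in DMEM with fetal bovine serum and harvested 48 h after seeding, and small RNA libraries were made from TRIZOL-extracted total RNA with a NEXTflex kit for sequencing on an Illumina HiSeq. Each line was 1 library without replicates, so no difference below has a replicate check, and the line, the culture and the library cannot be told apart. C643 was deposited in a table of its own, ES-2 and Huh-7 in another, and the tables may have been normalized separately. Shares, which no factor between libraries can change, were therefore used for every level set across them.

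A miRNA is cut from a hairpin precursor, whose 5p and 3p arms can each be loaded into an Argonaute protein, and it then represses mRNAs that pair with its seed, bases 2 to 8 from its 5′ end. Precursors that lie close together are often transcribed as 1 RNA, and most precursors yield far more of one arm than of the other. Many miRNAs follow cell lineage: miR-122 marks hepatocytes, the miR-200 family epithelium, and miR-143, miR-199a and miR-214 mesenchymal cells.

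The depth was 8183100 miRNA reads in C643, 1663181 in ES-2 cells and 2173587 in Huh-7. A miRNA with 0 reads could hold a share of up to 3.67e-05%, 0.00018% and 0.000138%, respectively (3 reads). Intervals for shares (Wilson, 95%) and for ratios (exact, 95%) cover counting error alone, since reads can be PCR copies of fewer molecules. Although C643 was sequenced most deeply, it listed few miRNAs at low counts: 107 of its 649 miRNAs with a read (16.5%) had 1 to 10 reads, compared with 289 of 608 in ES-2 cells (47.5%) and 364 of 858 in Huh-7 (42.4%). The part of this difference in the low values below was not tested.

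**Figure D1:**
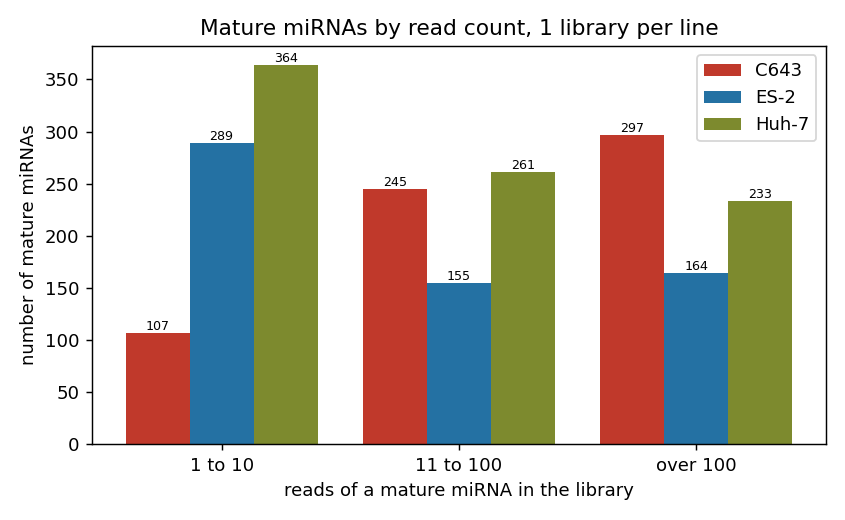
Bars give the number of mature miRNAs (vertical axis) with 1 to 10, 11 to 100 or over 100 reads (horizontal axis) in the library of each line. C643 had 107 miRNAs in the lowest class and 297 in the highest, whereas ES-2 had 289 and 164 and Huh-7 had 364 and 233.

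Mature sequences were taken from RefSeq (GRCh38.p14), where 20 of the 22 miRNAs had a match; miR-10b-5p and miR-375 are named only. The miRNAs higher in C643 are shown first, because they are the sequences whose abundance sets this line apart, with the seed in capitals.
let-7b-5p: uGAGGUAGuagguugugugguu
let-7b-3p: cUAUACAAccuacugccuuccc
miR-218-5p: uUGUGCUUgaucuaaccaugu
miR-143-3p: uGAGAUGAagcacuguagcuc
miR-181a-2-3p: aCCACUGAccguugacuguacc
miR-27b-5p: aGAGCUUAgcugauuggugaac
miR-767-5p: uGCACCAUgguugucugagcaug
miR-105-5p: uCAAAUGCucagacuccuguggu
miR-149-5p: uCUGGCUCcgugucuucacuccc
miR-214-3p: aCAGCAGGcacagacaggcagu

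These 10 miRNAs had 10 different seeds. Among those lower in C643, miR-17-5p and miR-20a-5p shared the seed AAAGUGC and came, with miR-18a-5p, from 1 precursor cluster. They are shown with miR-99a-5p, miR-200c-3p and miR-34a-5p, the other lower miRNAs described at length below.
miR-17-5p: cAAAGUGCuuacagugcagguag
miR-20a-5p: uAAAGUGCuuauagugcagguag
miR-18a-5p: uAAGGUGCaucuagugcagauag
miR-99a-5p: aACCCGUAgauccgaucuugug
miR-200c-3p: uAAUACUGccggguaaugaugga
miR-34a-5p: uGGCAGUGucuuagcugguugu

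Length and base content lay close to those of all tested miRNAs. The 10 higher ones were 21 to 23 bases long with a median GC content of 48.9%, and the 10 lower ones 22 to 24 bases long with a median of 46.8%. The median over the 191 of 212 miRNAs with a RefSeq sequence was 47.8%.

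The rule called 4.72% of the 212 miRNAs as higher and 5.66% as lower in C643. Applied to ES-2 in the same way it called 7 miRNAs as higher (3.3%) and 16 as lower (7.55%), and applied to Huh-7 it called 45 as higher (21.2%) and 42 as lower (19.8%). C643 thus had about as many such miRNAs as ES-2, and Huh-7 was the line with the most. With ES-2 alone, C643 exceeded it at least 4-fold in 28 miRNAs (13.2%), and 21 were at least 4-fold lower (9.91%). Against Huh-7 alone, the numbers were 51 (24.1%) and 65 (30.7%). Over all miRNAs with a ratio the median log2 ratio was 0.09 against ES-2 (204 miRNAs) and -0.68 against Huh-7 (209 miRNAs).

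Altogether the 10 higher miRNAs made up 4.33% of the C643 library, 0.860% of ES-2 and 0.116% of Huh-7. Most of this was let-7b-5p; without it the sums were 0.938%, 0.0772% and 0.113%. The 12 lower miRNAs made up 0.129% of C643, 0.649% of ES-2 and 1.45% of Huh-7. Just inside the limit for higher miRNAs were miR-767-5p (4.30-fold in the comparison with the smaller ratio), let-7b-5p (4.33) and miR-181a-2-3p (4.34), and just outside were miR-1260b (3.38), miR-1260a (3.36) and let-7a-3p (3.30). For lower miRNAs, miR-20a-5p (4.11-fold), miR-10b-5p (4.34) and miR-17-5p (4.42) were just inside, and miR-19a-3p (3.95), miR-454-3p (3.47) and miR-196b-5p (3.33) just outside.

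**Figure D2:**
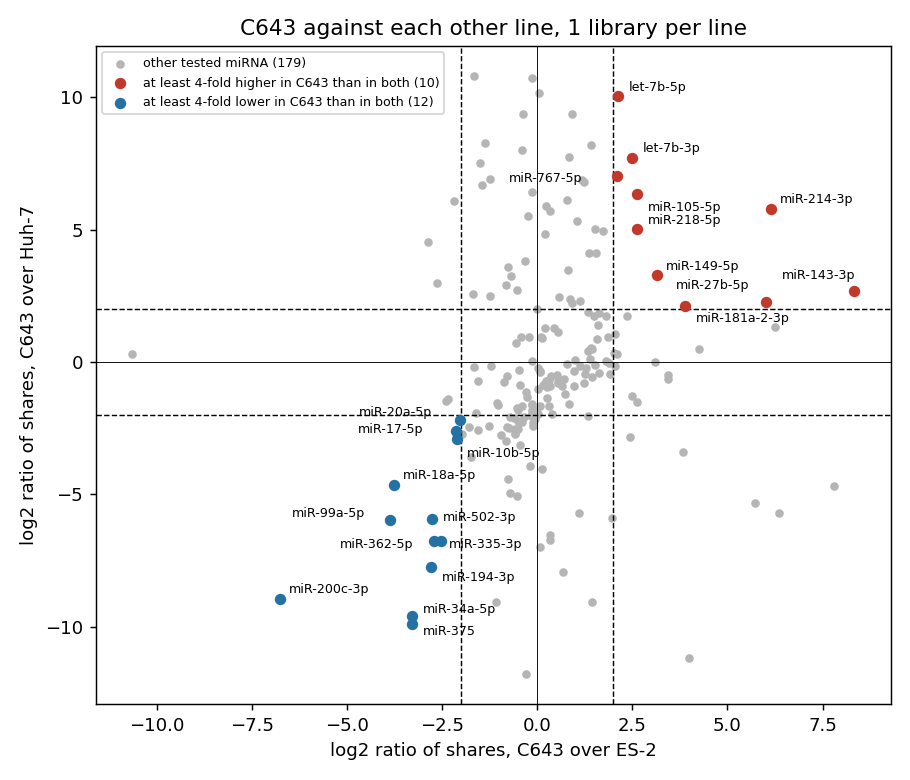
Each point is 1 of the 201 miRNAs with a ratio to both lines, placed by the log2 ratio of its share in C643 over ES-2 (horizontal axis) and over Huh-7 (vertical axis); libraries at or below 3 reads were set to 3 reads. Dashed lines mark a 4-fold ratio, beyond which lie the 10 higher (red) and 12 lower (blue) miRNAs, while 179 others (grey) spread far more along the Huh-7 axis.

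The let-7 family blocks growth-promoting mRNAs such as those of RAS and HMGA2, and its maturation is inhibited by LIN28 proteins. let-7b-5p was the most abundant of the higher miRNAs. It ranked 6 in C643 with 3.39% of miRNA reads (277411 reads), 17 in ES-2 with 0.783% (13023 reads) and 265 in Huh-7 with 0.00322% (70 reads). The share in C643 was thus 4.33-fold that of ES-2 (95% interval 4.25 to 4.41) and 1053-fold that of Huh-7 (833 to 1350). The ratio to ES-2 lay near the limit and dropped below it under other scalings (3.60-fold on the deposited scale, 3.31-fold with median-ratio size factors).

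The other arm of the same hairpin, let-7b-3p, was read 2388 times in C643 (0.0292%), 87 times in ES-2 cells (0.00523%) and 0 times in Huh-7. This is 5.58-fold higher than in ES-2 cells (4.50 to 6.99). With Huh-7 set to 3 reads, let-7b-3p was 211-fold higher than in that line (exact lower limit 172-fold). Both arms come from MIRLET7B (chr22:46113686-46113768, plus strand, GRCh38.p14), in an exon of the non-coding host transcript MIRLET7BHG, which also holds MIRLET7A3. All 4 tested arms of these neighbours were higher in C643 than in both lines, at any ratio above 1. The rule itself placed let-7b-5p and let-7b-3p there, so only the let-7a arms add to it. Both let-7a arms are also made from other genomic copies, so their reads are not specific to MIRLET7A3. The tables split the C643 reads of let-7a-3p into 2090 on chromosome 22 and 2149 on chromosome 9. Over all 212 tested miRNAs 25.5% were higher than in both lines at any ratio and 30.7% lower than in both. Of the arms that missed the limit, let-7a-3p was 3.30-fold and 31.3-fold higher than in ES-2 and Huh-7, and let-7a-5p 1.16-fold and 28.3-fold higher. let-7b-5p was the less frequent partner in each line, with 4.08 let-7a-5p reads per let-7b-5p read in C643, 15.3 in ES-2 cells and 151.5 in Huh-7.

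The listed let-7 and miR-98 family summed to 30.1% of reads in C643, 20.0% in ES-2 cells and 1.39% in Huh-7. Its 9 miRNAs share the seed GAGGUAG. Of them, 1 (let-7b-5p) was at least 4-fold higher than in ES-2 and 7 were at least 4-fold higher than in Huh-7. Of all 212 tested miRNAs, 13.2% and 24.1% were. let-7e-5p was 3.09-fold higher than in ES-2 and 3.57-fold higher than in Huh-7, and let-7f-5p 2.94-fold and 17.2-fold higher. let-7c-5p was lower than in ES-2 (0.434-fold), and let-7i-5p was close to ES-2 (0.904-fold). Because these sequences differ at few bases, the counting could have split reads between family members.

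miR-218-5p, whose precursors lie in introns of the axon guidance genes SLIT2 (MIR218-1, chr4:20528275-20528384, plus strand) and SLIT3 (MIR218-2, chr5:168768146-168768255, minus strand), made up 0.316% of C643 reads (25896 reads). It had 0.0513% in ES-2 cells (853 reads) and 0.00971% in Huh-7 (211 reads), so that C643 was 6.17-fold (5.76 to 6.61) and 32.6-fold (28.5 to 37.5) higher. The mature sequence is the same for both copies, and the tables split its C643 reads into 14356 on chromosome 4 and 11540 on chromosome 5, which cannot tell the copies apart. Their 3p arms differ: miR-218-1-3p had 188 reads in C643, 2 in ES-2 cells and 15 in Huh-7, and miR-218-2-3p had 0 in all 3.

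miR-143-3p and miR-214-3p are known from mesenchymal cells. miR-143-3p held 0.253% in C643 (20687 reads), 0.000782% in ES-2 cells (13 reads) and 0.0398% in Huh-7 (866 reads). Its ratio to ES-2, 323 (189 to 608), was the highest of the 9 higher miRNAs with reads in ES-2, and its ratio to Huh-7 was 6.35 (5.93 to 6.80). MIR143 (chr5:149428918-149429023, plus strand) lies in an exon of CARMN, a long non-coding RNA, and MIR145 in an intron of it. The arms of MIR145 had few reads and missed the limit against Huh-7. miR-145-5p had 155 reads in C643, and with ES-2 (0 reads) set to 3 reads it was 10.5-fold above that line (exact lower limit 8.44). Its share was 0.915 times that of Huh-7 (45 reads, interval 0.653 to 1.31). miR-145-3p had 145, 1 and 22 reads, and was 29.5-fold above ES-2 (5.21 to 1172) and 1.75-fold above Huh-7 (1.11 to 2.88). There were 133 reads of miR-143-3p per read of miR-145-5p in C643 and 19.2 in Huh-7.

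miR-214-3p was read 1050 times in C643 (0.0128%), 0 times in ES-2 cells and 5 times in Huh-7 (0.00023%). With ES-2 set to 3 reads, C643 was 71.1-fold above ES-2 (exact lower limit 57.75). It was 55.8-fold above Huh-7 (23.8 to 172). MIR214 (chr1:172138798-172138907, minus strand) lies with MIR199A2 in exons of DNM3OS, a transcript antisense to an intron of DNM3. The arms of the neighbouring precursor differed from miR-214-3p in ES-2: miR-199a-3p, which is also made from a further copy, had 25247 reads in C643, 6718 in ES-2 cells and 26 in Huh-7, a ratio of 0.764 to ES-2 and 258 to Huh-7. ES-2 thus had no miR-214-3p read beside 6718 of miR-199a-3p.

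The list of mesenchymal miRNAs held 8 names, of which 6 were tested. Of these 2 were higher in C643 than in both lines (miR-143-3p and miR-214-3p), and miR-10b-5p was lower than in both. In sum the list made up 0.816% in C643, 0.926% in ES-2 cells and 0.481% in Huh-7, so the list as a whole was not highest in C643.

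miR-27b-5p is the lesser arm of its hairpin. miR-181a-2-3p had fewer reads than its 5p arm in each line, but that arm is also made by another precursor. Which arm of its own hairpin was the lesser in C643 is therefore not known. miR-27b-5p held 0.132% in C643 (10786 reads), 0.00204% in ES-2 cells (34 reads) and 0.0274% in Huh-7 (595 reads). The ratios were 64.5 (46.1 to 93.2) and 4.82 (4.43 to 5.24). Its precursor MIR27B (chr9:95085445-95085541, plus strand) lies between MIR23B and MIR24-1 in C9orf3, a protein-coding gene. The main arm, miR-27b-3p, was 10.9-fold higher than in ES-2 (10.4 to 11.6) but 0.707 times the share in Huh-7 (0.697 to 0.718). The arms of MIR27B therefore ranked the lines differently: Huh-7 was highest in the 3p arm and C643 in the 5p arm.

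Of the 5 tested arms in this cluster all were higher in C643 than in ES-2 cells and 3 were higher than in Huh-7, beside 51.9% and 37.7% of all tested miRNAs. Among these arms, miR-27b-5p was higher by the rule itself. miR-23b-3p was 10.9-fold above ES-2 and 0.637 times Huh-7. Its lesser arm miR-23b-5p had 1126 reads in C643, 3 in ES-2 cells and 120 in Huh-7, with ratios of 76.3 (26.0 to 370.5) and 2.49 (2.06 to 3.03). miR-24-3p, which is made from a second cluster too, was 3.04-fold and 2.66-fold higher. The list of miR-23, miR-27 and miR-24 summed to 4.70% in C643, 1.80% in ES-2 cells and 2.69% in Huh-7, and 2 of its 5 miRNAs were at least 4-fold higher than in each other line, though none in both.

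miR-181a-2-3p held 0.149% in C643 (12170 reads), 0.00998% in ES-2 cells (166 reads) and 0.0342% in Huh-7 (744 reads). The ratios were 14.9 (12.8 to 17.5) and 4.34 (4.03 to 4.68). MIR181A2 (chr9:124692442-124692551, plus strand) is in an intron of MIR181A2HG, opposite an intron of NR6A1. Its 5p arm, miR-181a-5p, is shared with a precursor on another chromosome and was 1.64-fold above ES-2 and 0.634 times Huh-7. In C643 there were 1.20 miR-181a-5p reads per miR-181a-2-3p read, whereas there were 10.9 in ES-2 cells and 8.21 in Huh-7. The 3p arm of the other precursor, miR-181a-3p, had 2820, 225 and 203 reads, 2.55-fold above ES-2. The miR-181 list summed to 0.349%, 0.219% and 0.606%, and neither of its 2 tested miRNAs was past 4-fold in any comparison.

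**Figure D3:**
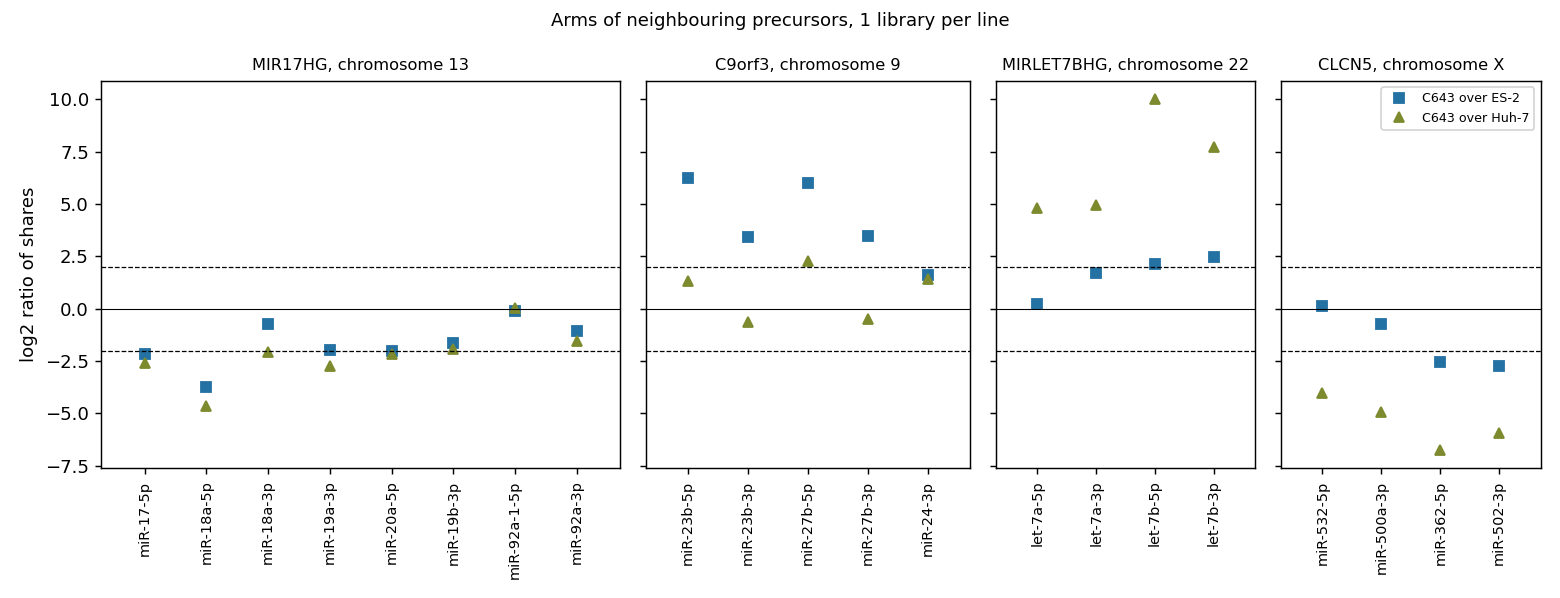
Each point gives the log2 ratio of shares (vertical axis) of 1 tested arm in C643 over ES-2 (squares) or Huh-7 (triangles), in 4 groups of neighbouring precursors named by their host gene; dashed lines mark 4-fold. All 4 arms of the MIRLET7BHG group lie above 0 and 7 of 8 arms of MIR17HG lie below 0 in both comparisons. The rule itself placed 2 and 3 of these arms, respectively. The let-7a arms, miR-19b-3p, miR-92a-3p and miR-24-3p are also made from copies outside their group. miR-27b-5p and miR-27b-3p of C9orf3 lie on opposite sides of 0 against Huh-7.

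The lesser arm was set against its partner in precursors with 1 genomic copy whose arms are both in the RefSeq table, with a tested main arm, at least 100 reads of the lesser arm over the 3 libraries and at least 100 reads of both arms together in each. These were 44 precursors. The lesser arm made up its highest fraction in 23 of them in C643, whereas ES-2 was highest in 8 and Huh-7 in 13, and the median fraction was 6.24%, 5.65% and 4.39%. Without the 3 precursors that hold a miRNA of the rule the numbers were 20, 8 and 13 of 41. The minimum for the lesser arm is met most easily by C643, the deepest library. With arms paired by name and no such minimum, a setting added after seeing the data, the highest fraction was in C643 in 39 of 85 precursors, in ES-2 in 22 and in Huh-7 in 19, and 5 had no single highest line. In MIR27B the 5p arm was 13.5% of reads in C643 (13.3 to 13.8), 2.58% in ES-2 cells (1.85 to 3.59) and 2.24% in Huh-7 (2.07 to 2.43). In MIR454 it was 15.5%, 1.84% and 3.16%, and in MIR18A the 3p arm was 58.6%, 14.6% and 19.4%. The opposite also occurred: miR-183-3p, miR-532-3p and miR-501-5p had 0 reads in C643, beside 8349, 728 and 440 reads of their partners, and were detected in both other lines.

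**Figure D4:**
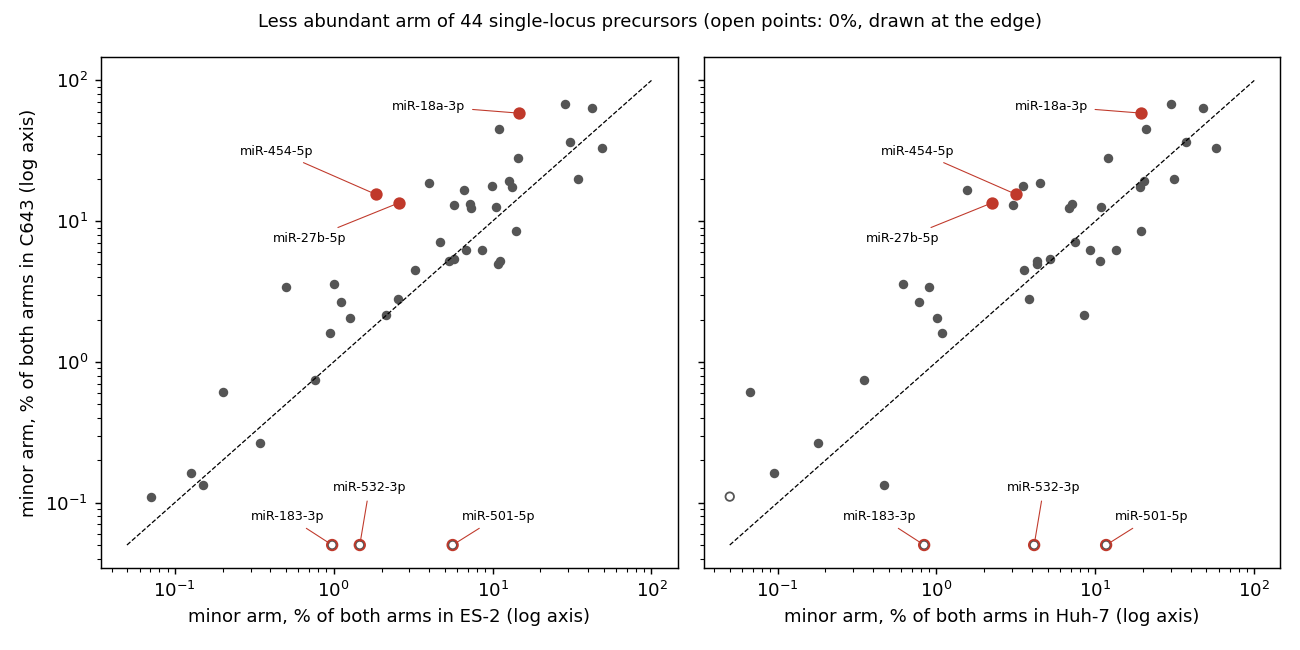
Each point is 1 of 44 precursors, with the lesser arm as a percentage of the reads of both arms in C643 (vertical axis, log) against ES-2 (left) or Huh-7 (right; horizontal axes, log); open points are 0% in 1 of the libraries and are drawn at the edge, and the miRNAs named in the text are in red. Points above the dashed line of equality, such as miR-27b-5p (13.5% in C643) and miR-18a-3p (58.6%), have a larger lesser-arm fraction in C643.

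miR-767-5p and miR-105-5p are made from neighbouring precursors in introns of GABRA3, which encodes a subunit of the GABA-A receptor. The precursors MIR105-1 (chrX:152392219-152392299), MIR767 (chrX:152393421-152393529) and MIR105-2 (chrX:152394412-152394492) all lie on the minus strand. miR-767-5p had 1461 reads in C643 (0.0179%), 69 in ES-2 cells (0.00415%) and 0 in Huh-7. It was 4.30-fold above ES-2 (3.38 to 5.56, an interval that reaches below the limit). With Huh-7 set to 3 reads, miR-767-5p was 129-fold above that line (exact lower limit 105). miR-105-5p had 911 reads (0.0111%), 30 (0.0018%) and 0, which is 6.17-fold above ES-2 (4.29 to 9.20). With Huh-7 set to 3 reads, it was 80.7-fold above that line (exact lower limit 65.5). Both miRNAs were thus read in C643 and ES-2 and in neither case in Huh-7.

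miR-149-5p, from MIR149 (chr2:240456001-240456089, plus strand) in an intron of the glypican gene GPC1, was the single higher miRNA for which ES-2 and Huh-7 were nearly alike. It had 1388 reads in C643 (0.0170%), 32 in ES-2 cells (0.00192%) and 38 in Huh-7 (0.00175%). The ratios were 8.82 (6.22 to 12.9) and 9.70 (7.03 to 13.8).

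**Figure D5:**
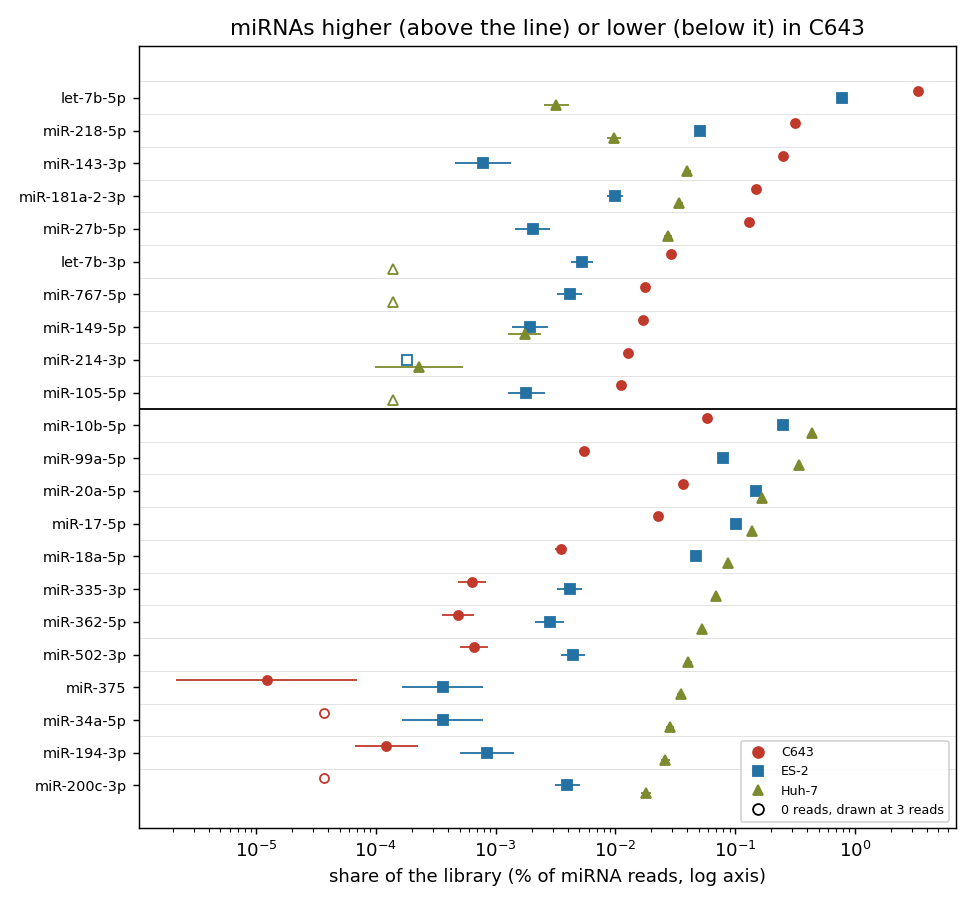
Points give the share of miRNA reads (horizontal axis, log) of each of the 22 miRNAs (vertical axis) in C643 (circles), ES-2 (squares) and Huh-7 (triangles), with Wilson 95% intervals that cover counting error; open symbols are libraries with 0 reads, drawn at 3 reads. C643 lies to the right of both lines for the 10 upper miRNAs and to the left for the 12 lower ones, of which Huh-7 had the highest share in 12. Where only Huh-7 reached the minimum of deposited units, the filter itself placed its share highest.

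The higher miRNAs differed in which other line came next. The ES-2 share was at least 4 times the Huh-7 share for 5 of the 10, the Huh-7 share at least 4 times the ES-2 share for 3 (including miR-214-3p, on 5 reads against 0), and the remaining 2 (miR-149-5p and miR-181a-2-3p) lay within 4-fold. All 12 lower miRNAs had their highest share in Huh-7, and in 8 of them it was at least 4 times that of ES-2. For miR-194-3p, miR-200c-3p, miR-335-3p, miR-34a-5p, miR-362-5p, miR-375 and miR-502-3p only Huh-7 reached the minimum of deposited units. The filter itself thus placed their highest share there. Among the lower miRNAs, the order was open only for miR-10b-5p, miR-17-5p, miR-18a-5p, miR-20a-5p and miR-99a-5p. Of the higher miRNAs, let-7b-3p, miR-767-5p, miR-105-5p, miR-149-5p and miR-214-3p reached the minimum in C643 alone. They were thus tested only through the line in which they are high. Over all 212 tested miRNAs, Huh-7 was at least 4-fold above both other lines in 21.2%. The 20 miRNAs with a RefSeq position came from 16 groups of precursors (within 10 kb on the same strand), and 4 of these groups held 9 of them, so that the miRNAs are not independent of one another.

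The miR-17 to miR-92a cluster is induced by MYC and promotes cell cycle entry and survival. Of its miRNAs, 3 were lower in C643 than in both lines. miR-18a-5p differed most, with 287 reads in C643 (0.00351%), 792 in ES-2 cells (0.0476%) and 1894 in Huh-7 (0.0871%), which is 13.6-fold (11.8 to 15.6) and 24.8-fold (21.9 to 28.2) lower. miR-17-5p had 1874 (0.0229%), 1682 (0.101%) and 3013 reads (0.139%), 4.42-fold (4.13 to 4.72) and 6.05-fold (5.71 to 6.42) lower. miR-20a-5p had 3000 (0.0367%), 2505 (0.151%) and 3628 reads (0.167%), 4.11-fold (3.89 to 4.33) and 4.55-fold (4.34 to 4.78) lower. On the deposited scale the smaller fold was 3.86 for miR-17-5p and 2.91 for miR-20a-5p, below the limit.

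All 6 precursors lie in an exon of MIR17HG on chromosome 13, from MIR17 (chr13:91350605-91350688, plus strand) to MIR92A1 (chr13:91351314-91351391). Of the 8 tested arms, 8 were lower in C643 than in ES-2 cells and 7 lower than in Huh-7. Of all tested miRNAs, 44.3% and 60.8% were lower. The 3 miRNAs of the rule are among these arms by construction. The distance varied between these arms. miR-19a-3p was 3.95-fold lower than in ES-2, and miR-92a-3p, the most abundant arm with 2.53% in C643, 5.25% in ES-2 cells and 7.37% in Huh-7, 2.08-fold lower. miR-19b-3p was 3.07-fold lower than in ES-2 and 3.79-fold lower than in Huh-7, and miR-92a-1-5p was nearly level (0.912 times ES-2 and 1.02 times Huh-7). There were 110.4 miR-92a-3p reads per miR-17-5p read in C643, 51.9 in ES-2 cells and 53.2 in Huh-7. miR-92a-3p and miR-19b-3p are each also made from a copy outside the cluster, so their reads are not specific to it.

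The arms of MIR18A differed too. miR-18a-3p had 406 reads in C643, 135 in ES-2 cells and 455 in Huh-7, 0.611 and 0.237 times the shares there. miR-18a-5p therefore had 0.707 reads per miR-18a-3p read in C643 (0.606 to 0.824), but 5.87 in ES-2 cells and 4.16 in Huh-7. miR-17-3p had 0 reads in C643, 45 in ES-2 cells and 47 in Huh-7. The list of this cluster and its paralogs held 13 names and summed to 3.34% of C643, 6.36% of ES-2 and 10.4% of Huh-7. Of its 9 tested miRNAs, 3 were at least 4-fold lower than in ES-2 cells and 6 at least 4-fold lower than in Huh-7. Of all 212 tested miRNAs, 9.91% and 30.7% were. The median log2 ratios of the list were -1.62 and -2.19, beside 0.09 and -0.68 over all tested. Of the seed partners of miR-17-5p outside the cluster, miR-93-5p was 0.599 times and miR-106b-5p 0.651 times the ES-2 share, and 0.180 and 0.230 times the Huh-7 share. miR-106a-5p, which had 51, 38 and 42 reads and was not tested, was 0.273 times ES-2 (0.176 to 0.427) and 0.323 times Huh-7 (0.210 to 0.497). The paralogous sequences are close to each other, so reads could have been split between them.

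miR-99a-5p and miR-10b-5p were the most abundant of the lower miRNAs in Huh-7. miR-99a-5p, a repressor of MTOR, had 447 reads in C643 (0.00546%), 1329 in ES-2 cells (0.0799%) and 7508 in Huh-7 (0.345%), and was 14.6-fold (13.1 to 16.3) and 63.2-fold (57.5 to 69.7) lower. MIR99A (chr21:16539089-16539169, plus strand) lies with MIRLET7C in introns of MIR99AHG. let-7c-5p was less different, at 0.434 times ES-2 and 0.894 times Huh-7. miR-99b-5p and miR-100-5p, which share the seed ACCCGUA, were not lower than in both lines. miR-100-5p made up 4.07% in C643, 11.2% in ES-2 cells and 0.0399% in Huh-7, whereas miR-99b-5p held 0.788%, 0.213% and 0.811%. The seed was thus far more abundant in C643 than miR-99a-5p alone shows. miR-100-5p had 333032 reads in C643 beside 447 of miR-99a-5p. Whether the counting split reads between these related sequences was not tested. The list of miR-99, miR-100 and miR-125 summed to 6.70%, 13.2% and 2.41%. Of its 5 miRNAs, 1 (miR-99a-5p) was at least 4-fold lower than in ES-2, and 2 were at least 4-fold higher and 1 lower than in Huh-7. Of all 212 tested miRNAs, 9.91% were at least 4-fold lower than in ES-2, and 24.1% higher and 30.7% lower than in Huh-7.

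miR-10b-5p, which is encoded among the HOXD genes, had 4769 reads in C643 (0.0583%), 4209 in ES-2 cells (0.253%) and 9490 in Huh-7 (0.437%), and was 4.34-fold (4.17 to 4.53) and 7.49-fold (7.23 to 7.76) lower. Its relative among the HOXB genes, miR-10a-5p, made up 1.05% in C643, 1.03% in ES-2 cells and 0.00092% in Huh-7. Whether reads were split between these relatives was not tested. The HOX-embedded list summed to nearly the same share in the 3 lines, 1.26%, 1.35% and 1.40%. Of its 5 miRNAs, 1 was at least 4-fold higher and 1 lower than in ES-2 cells, beside 13.2% and 9.91% of all 212 tested. Against Huh-7, 1 was higher and 3 lower, beside 24.1% and 30.7%.

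miR-200c-3p represses the transcription factors ZEB1 and ZEB2 and keeps epithelial identity. It had 0 reads in C643, 66 in ES-2 cells (0.00397%) and 394 in Huh-7 (0.0181%). With C643 set to 3 reads, miR-200c-3p was 108-fold and 494-fold lower there (exact lower limits 85.6-fold and 400-fold). MIR200C (chr12:6963699-6963766, plus strand) is in an intron of MIR200CHG together with MIR141, whose miR-141-3p also had 0 reads in C643, beside 7 in ES-2 cells and 4 in Huh-7. The list of the miR-200 family with miR-203a and miR-205 summed to 0.00131% in C643, 0.00559% in ES-2 cells and 0.382% in Huh-7, and 5 of its 7 miRNAs had 0 reads in C643. The others were miR-200b-3p, with 102 reads in C643, 13 in ES-2 cells and 6558 in Huh-7, and miR-203a-3p, with 5, 6 and 0.

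miR-34a-5p is induced by p53 and halts the cell cycle. It had 0 reads in C643, 6 in ES-2 cells (0.000361%) and 619 in Huh-7 (0.0285%), 9.84-fold and 777-fold lower with C643 set to 3 reads. The exact 95% limits, which also hold the counting error of the other library, were 5.79-fold and 630-fold. The other arm, miR-34a-3p, had 0, 5 and 25 reads. MIR34A (chr1:9151668-9151777, minus strand) is in an exon of MIR34AHG. The list of miR-34 and miR-449 had 0 reads in C643, 8 in ES-2 cells and 627 in Huh-7 over its 5 miRNAs.

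miR-375, which is typical of neuroendocrine cells, had 1 read in C643, 6 in ES-2 cells (0.000361%) and 762 in Huh-7 (0.0351%). With C643 set to 3 reads it was 9.84-fold below ES-2 and 956-fold below Huh-7. The single read as counted gives 29.5-fold (3.58 to 1358) and 2869-fold (513 to 113457). The comparison of both miR-34a-5p and miR-375 with ES-2 rests on 6 reads there. If C643 could not have shown fewer than 30 reads, a limit chosen after its low counts were seen, neither would be lower than in ES-2 (0.984-fold).

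miR-194-3p, miR-335-3p, miR-362-5p and miR-502-3p had their highest shares in Huh-7 and lower ones in both other lines. Only Huh-7 reached the minimum of deposited units for them, so the filter itself placed its share highest. miR-194-3p had 10 reads in C643, 14 in ES-2 cells and 569 in Huh-7, 6.89-fold (2.85 to 17.3) and 214-fold (116 to 449) lower. It comes from MIR194-2 (chr11:64891355-64891439, minus strand), in MIR194-2HG beside MIR192, and these miRNAs are known from liver and gut. The main arm miR-194-5p (654, 105 and 18351 reads) and miR-192-5p (560, 109 and 19125 reads) were not lower than in ES-2, at 1.27 and 1.04 times its share. They were 106-fold and 129-fold lower than in Huh-7. miR-194-5p is also made from another genomic copy.

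miR-335-3p, from MIR335 (chr7:130496111-130496204, plus strand) in an intron of the imprinted gene MEST, had 52 reads in C643, 69 in ES-2 cells and 1501 in Huh-7, 6.53-fold (4.49 to 9.54) and 109-fold (82.4 to 146) lower. Its other arm, miR-335-5p, had 31, 5 and 770 reads, and its ratio to ES-2 was 1.26, with an interval from 0.486 to 4.15 that leaves the order of C643 and ES-2 undetermined at this depth.

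miR-362-5p had 40 reads in C643, 47 in ES-2 cells and 1157 in Huh-7, 5.78-fold (3.71 to 9.04) and 109-fold (79.5 to 153) lower. miR-502-3p had 54, 74 and 885 reads, 6.74-fold (4.68 to 9.76) and 61.7-fold (46.9 to 82.8) lower. MIR362 (chrX:50008964-50009028) and MIR502 (chrX:50014598-50014683), both on the plus strand, lie in introns of the chloride transporter gene CLCN5. Together with MIR532 and MIR500A in the same gene, these precursors gave 4 tested arms. In C643, 3 of them were lower than in ES-2 and 4 at least 4-fold lower than in Huh-7. Of all tested miRNAs, 44.3% and 30.7% were. Among the 4 arms, miR-362-5p and miR-502-3p are lower by the rule itself. The count leaves out the tested miR-660-5p, whose precursor MIR660 also lies in CLCN5, and miR-501-3p. miR-500a-3p was 1.65-fold below ES-2 and 30.6-fold below Huh-7. miR-532-5p, upstream of them, was nearly level with ES-2 (1.10-fold, 0.911 to 1.33) and 16.5-fold below Huh-7, and miR-501-3p, which shares the miR-502-3p seed AUGCACC, was 0.885 times ES-2 and 15.4-fold below Huh-7.

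The other arms not yet given had few reads. miR-214-5p had 46 reads in C643 and 0 in both other lines, and miR-767-3p had 18, 1 and 0. miR-20a-3p had 63, 32 and 37 reads, miR-362-3p had 62, 15 and 122, and miR-502-5p had 14, 1 and 67. In C643 miR-105-3p, miR-149-3p, miR-99a-3p, miR-143-5p and miR-200c-5p had 0 reads, and they had at most 4 in any other library.

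A further 11 of the 212 miRNAs had 3 or fewer reads in C643 and in at least 1 other line, so no ratio was formed. For 8 of them this was ES-2 (among them miR-429 and miR-200a-3p of the miR-200 family, miR-215-5p and miR-885-3p), and for 3 it was Huh-7 (miR-142-3p, miR-142-5p and miR-3689f).

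The labels of the lines were set against lists of miRNAs linked to tissues. The liver-linked list summed to 18.4% of reads in Huh-7, 0.0751% in C643 and 0.0139% in ES-2. All 6 of its miRNAs were at least 4-fold lower in C643 than in Huh-7, beside 30.7% of all 212 tested. miR-122-5p made up 13.3% in Huh-7 (288469 reads), 0.00572% in C643 (468 reads) and 0.000361% in ES-2 (6 reads). The thyroid tumor-linked list did not single out C643: its 17 miRNAs summed to 5.64% in C643, 9.65% in ES-2 cells and 1.20% in Huh-7. Of the 12 tested, 0 were higher in C643 than in both lines and 2 were lower than in both (miR-375 and miR-34a-5p). Compared with ES-2, 0 were at least 4-fold higher and 4 at least 4-fold lower, and compared with Huh-7, 6 were higher and 2 lower.

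Within this list miR-146b-5p, which is raised in papillary thyroid carcinoma, had 603 reads in C643 (0.00737%), 120 in ES-2 cells (0.00721%) and 629 in Huh-7 (0.0289%). miR-221-3p and miR-222-3p, repressors of the cell cycle inhibitor p27, made up 1.504% and 3.12% in C643, but 2.43% and 5.54% of ES-2 reads. Their shares in Huh-7 were 0.157% and 0.413%. miR-7-5p was highest in C643, at 0.438%, 0.297% and 0.200%. miR-204-5p had 7, 0 and 141 reads, and miR-187-3p and miR-551b-3p had 0 reads in C643.

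Lists for other cell types held small shares of C643. The blood cell list summed to 0.00246% in C643, 0.0486% in ES-2 cells and 0.127% in Huh-7, with miR-223-3p, miR-144-3p, miR-451a and miR-142-3p at 0 reads in C643. The endothelial list (miR-126 arms) had 0.00207%, 0.000661% and 0.0887%. The muscle list had 10 reads in C643, 14 in ES-2 cells and 36 in Huh-7, and the stem cell clusters 4, 0 and 0. The neural list made up 0.171%, 0.191% and 0.530%, mostly miR-128-3p, with miR-124-3p at 0 reads in all 3. The 34 miRNAs of the DLK1-DIO3 cluster had 872 reads in C643 (0.0107%), 9 in ES-2 cells and 67 in Huh-7, too few for any of them to be tested.

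Among the remaining families, 0 tested miRNAs were past the limit in the same direction in both comparisons. The miR-30 family summed to 6.85%, 7.11% and 3.45% in C643, ES-2 and Huh-7, with 1 of 5 (miR-30a-5p) at least 4-fold above Huh-7. The miR-29 family summed to 1.10%, 2.60% and 0.195%, with 1 of 2 tested (miR-29b-3p) at least 4-fold below ES-2 and both at least 4-fold above Huh-7. The miR-15 and miR-16 seed family summed to 0.618%, 0.500% and 1.11%, with 0 of 4 past the limit. The miR-183 cluster summed to 0.273%, 0.433% and 1.70%. All 3 of its miRNAs were at least 4-fold below Huh-7 and 0 past the limit against ES-2. Of all 212 tested miRNAs, 13.2% were at least 4-fold above and 9.91% below ES-2, and 24.1% above and 30.7% below Huh-7.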

How the data were processed

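Small RNA was sequenced from 3 cell lines, 1 library each. The authors deposited 2 tables of 2813 loci of 2588 mature miRNAs, and what they deposited is a signal, in which the reads of each locus were multiplied by 1 factor per library. The values are named CPM (counts scaled to library size), but the columns summed to 959302, 1154552 and 612015 units in C643, ES-2 and Huh-7, so the unit the design had assumed did not hold. The submitters' processing notes name cutadapt 1.14, Bowtie2 2.3.3, SAMtools 1.5, featureCounts 1.5.3, edgeR 3.18.1 and hg38, without roles. The handling of reads with several matches and of duplicate reads is not given in the sources used here.

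Every nonzero value was a whole multiple of the smallest (100% within 0.01), and dividing by it recovered whole reads. Loci were summed by mature miRNA and shares taken of the column total. A library at or below 3 reads was set to 3 reads, and a ratio was left out where both were. Calculations used Python 3.11.15, pandas 2.3.3, NumPy 2.4.6, SciPy 1.17.1 and matplotlib 3.10.9, and were tested on simulated data. Precursor positions and sequences came from RefSeq (GRCh38.p14), host genes from GENCODE 29. All 22 loci with a RefSeq position lay on the chromosome the tables give.

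The miRNAs, the 21 lists and the tests were chosen with earlier results of these data known. Every miRNA of the rule is named, with its other arm where RefSeq pairs one and the 3 miRNAs on either side of each limit; neighbours and list members are named as examples. The design held 12 alternatives, among them other fold limits, filters, scalings and pseudocounts. A further 3 were chosen after seeing the data: a floor of 30 reads in C643, pairing of arms by name, and an exact test of reads with Benjamini-Hochberg adjustment at 0.05, which compares these libraries and not the lines.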

Additional observations from a re-analysis of the deposited data

How the results depend on the processing

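No paired analysis was possible because only 1 library was made per line and the labels give no replicate numbers; for the same reason no library could be left out. With a fold limit of 2, 27 miRNAs were higher in C643 (14.29% of its reads) and 23 lower (2.765%), and with a limit of 8, 2 (0.02979%) and 5 (0.008982%). A filter at 10 units gave 26 higher (4.379%) and 27 lower, and no filter 35 (4.386%) and 51. The deposited scale gave 9 higher miRNAs (8 of the 10 kept; 0.9442%) and 12 lower (10 kept; 0.08087%), and median-ratio size factors 8 (8 kept; 0.9199%) and 12 (10 kept; 0.08087%). These scalings moved the log2 ratios by -0.27 and -0.39 against ES-2 and by 0.65 and 0.63 against Huh-7, and both lost let-7b-5p, miR-767-5p, miR-17-5p and miR-20a-5p, which have the smallest folds but for miR-181a-2-3p and miR-10b-5p. Without miR-21-5p in the total the shares were 6.062% and 0.1803%, with 1 locus per miRNA, which lost miR-105-5p, 5.018% and 0.1547%. Requiring the whole interval past the limit lost miR-767-5p (4.31%) and, of the lower, miR-194-3p, miR-20a-5p, miR-362-5p and miR-375 (0.09144%). A pseudocount of 10 left 4.31% in the higher and 6 lower miRNAs. The read test, added after seeing the data, called 51 miRNAs higher and 56 lower than in both lines. It called 181 of 212 miRNAs against ES-2 alone and 203 against Huh-7 alone, so by this test most miRNAs differed between libraries. A floor of 30 reads in C643, also added, turned miR-34a-5p and miR-375 to 0.984-fold against ES-2 and lost miR-194-3p. It cut the smaller fold of miR-200c-3p to 10.8. Of the counts and shares under an alternative, 28 moved beyond tolerance and 24 did not (1.5 times for a count, the 95% interval for a share). What causes these moves was not tested beyond each setting's construction. Pairing arms by name with no minimum for the lesser arm was also added after seeing the data. The lesser-arm fraction was then highest in C643 in 39 of 85 precursors, beside 23 of 44 in the main setting, a smaller part of a larger set. It was highest in ES-2 in 22 of 85, beside 8 of 44. Depth limits low values: 7 of the 12 lower miRNAs had under 100 reads in C643.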
